A study of Mus musculus with 9 samples.

Results

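Haploid round spermatids were set against mitotic spermatogonia, the last and the first of the 3 stages of mouse male germ cells sequenced. The comparison took in the 3 round spermatid and the 3 spermatogonia libraries, 6 of the 9 in the series, chosen by their labelled cell type, and it skips the pachytene spermatocytes that lie between the 2 stages. All cells came from testes of adult male mice on a normal diet, and the spermatogonia are labelled as types A and B together. No treatment or altered allele is labelled for either group, the strain and the way the cells were isolated are not given, and the labels do not say whether replicates came from separate animals, so p-values measure only the spread between these samples. RNA was extracted with a Qiagen kit, and 1 µg of total RNA went into each Illumina TruSeq stranded library, read as 100 bp pairs.

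Spermatogonia divide by mitosis in the basal layer of the seminiferous tubule, among them the stem cells that keep sperm production going, and their daughters enter meiosis. Round spermatids are the haploid products of meiosis. They build the acrosome, the secretory vesicle that later opens at the egg, assemble the flagellum, and make ready to exchange their histones, first for transition proteins and then for protamines, while many of their transcripts are stored for translation after transcription has stopped.

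Expression values were FPKM, fragments per kilobase of transcript per M mapped fragments (M, mega), which the authors deposited in an mRNA table of 39336 features of every gene type and a lncRNA table of 5385 features. Each table was scaled separately and was tested on its own, with limma on log2(FPKM + 0.1). A call needed both a Benjamini-Hochberg adjusted p below 0.05 and a difference of 1 or more on the log2 scale in either direction, and "rose" and "fell" refer to such calls only, always as round spermatids relative to spermatogonia. For genes near 0 FPKM, the added 0.1 makes the log2 fold change smaller than the true one. Every ± is an SD over 3 libraries.

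Across features of the mRNA table, log2 values of libraries of the same stage correlated at 0.969 to 0.986, and those of libraries of the 2 stages at 0.375 to 0.404. Depth is not stated, and the steps between low FPKM values imply about 25.5 to 53.2 M fragments in spermatogonia and 16.96 to 25.6 M in round spermatids. Summed over protein-coding genes, FPKM came to 237602 to 248428 in the spermatogonia libraries and 577244 to 591202 in the round spermatid libraries. Over all features the sums were closer, at 537708 to 641580 in spermatogonia and 702209 and 718563 in round spermatid replicates 1 and 3. Scaling every library to the same protein-coding sum lowered the median log2 fold change of the mRNA table by 1.21. Scaling to equal library medians lowered it by 0.25. The counts of the gene lists are therefore given with equal library sums as well. A single microRNA gene, Mir1938, holds 743497 FPKM in round spermatid replicate 2, against 0 elsewhere, and was not tested. The labels were checked against markers: Kit, Dmrt1, Stra8, Sohlh1, Ccnd2 and Zbtb16 fell, all 7 markers of round spermatids rose, and Gfra1, a receptor of spermatogonial stem cells, did not separate the stages, at 5.17 ± 0.803 FPKM in spermatogonia and 6.001 ± 0.129 in round spermatids. Spermatogonia replicate 3 stood apart from its 2 fellows in transcripts of other cells of the testis, described with those lists.

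In the mRNA table, 17987 features passed the filter of at least 0.5 FPKM in 3 libraries. Of them 6926 rose (38.5%) and 5410 fell (30.1%), so that 68.6% were called, and the 3 values of each stage did not overlap for 89% of features. With library sums made equal, 4797 rose and 8870 fell, and the rising share of the calls went from 56.1% to 35.1%. The median log2 fold change over all tested features was 0.21. On the deposited scale rises were larger than falls. Among protein-coding genes 5323 rose (35.9%) by a median of 2.91 on the log2 scale and 4773 fell (32.2%) by a median of 1.94. Of the 14808 tested, 1876 were under 0.5 FPKM in every spermatogonia library and 996 in every round spermatid library. The filter shaped the direction of both sets. Among the 12932 not under it in every spermatogonia library, 3521 rose and 4773 fell. This count left genes out by their spermatogonia values only, not by their round spermatid values, which takes away rises but not falls. It therefore cannot decide which direction held more genes. With equal library sums 3476 coding genes rose (23.5%) and 7755 fell (52.4%). On the deposited scale 500 rose by at least 8 on the log2 scale, and 0 fell by that much. There were 379 protein-coding genes at 10 FPKM or more in every round spermatid library and under 0.1 FPKM in every spermatogonia library, and 0 genes with the reverse pattern. The level of a gene in the skipped pachytene stage usually lay nearer to round spermatids: this held for 69.8% of the protein-coding genes that rose and 85.2% of those that fell.

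**Figure D1:**
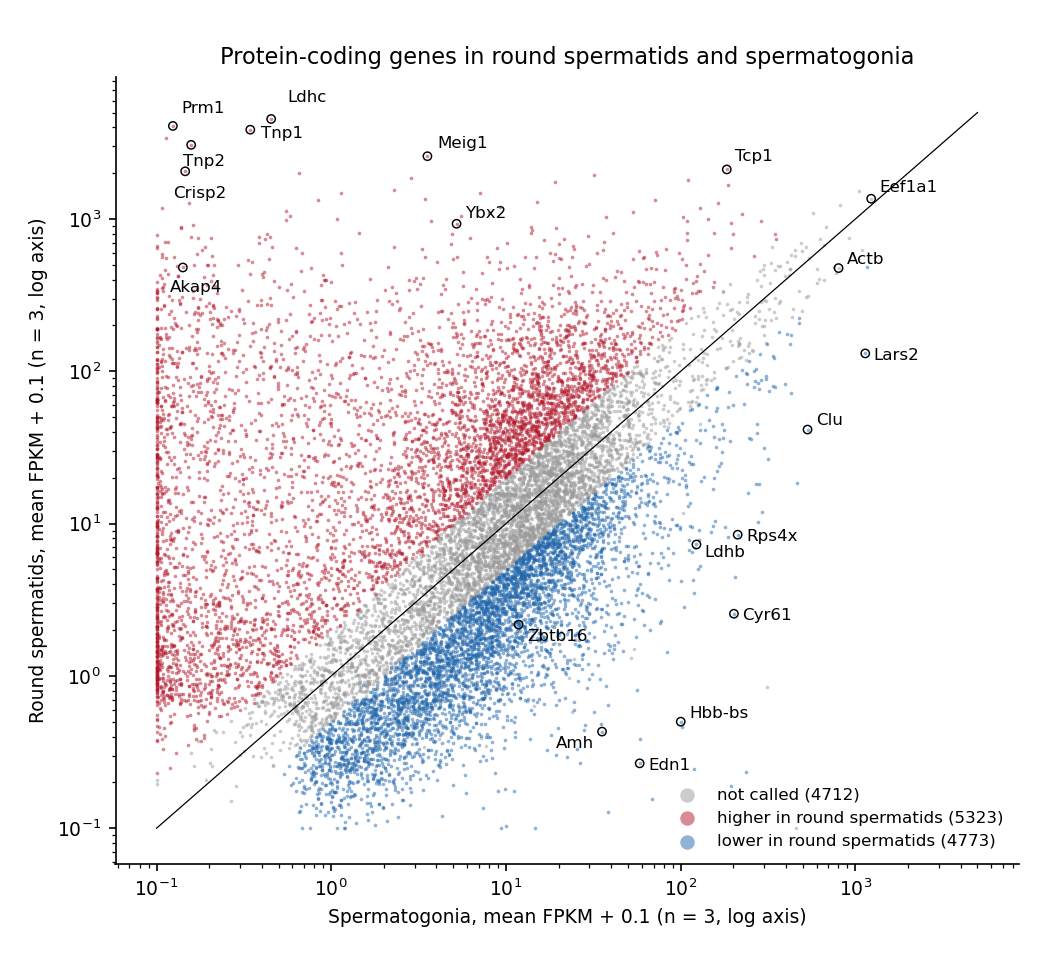
Mean FPKM of each protein-coding gene in spermatogonia (x axis) and round spermatids (y axis), both on log scales after adding 0.1 FPKM, with genes that rose in red, genes that fell in blue, the others in grey, and a line where the means are equal. Prm1, Tnp1 and Tnp2 lie at the upper left, under 1 FPKM in spermatogonia, and genes listed at 0 in every spermatogonia library form the column at the left edge.

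Among protein-coding genes, those that package sperm DNA held 4 of the 5 highest levels in round spermatids. Prm1, which encodes protamine 1, a small arginine-rich protein that replaces histones on sperm DNA (chr16:10796326-10805839, minus strand, GRCm38), was at 0, 0.0720 and 0 FPKM in spermatogonia and at 4122, 4145 and 3990 FPKM in round spermatids. Every round spermatid value lay far above every spermatogonia value, and the fitted log2 fold change was 15.06 (SE 0.192, limma, adjusted p = 3.54e-12). Prm2, the second protamine and a neighbour of Prm1 on chromosome 16, was at 0, 0.0397 and 0 FPKM in spermatogonia and at 3491, 3337 and 3401 FPKM in round spermatids (log2 fold change 14.90, SE 0.12). Tnp1, for transition protein 1, was at 0.116, 0.359 and 0.257 FPKM in spermatogonia and at 4079, 3705 and 3796 FPKM in round spermatids (13.52, SE 0.223). Tnp2, for transition protein 2, reached 3003, 3096 and 3111 FPKM from under 0.1 FPKM in all 3 spermatogonia libraries. All 4 were already present in pachytene cells at lower levels, with means of 409 ± 48.2 FPKM for Prm1 and 340 FPKM for Tnp1. Hils1, a linker histone of spermatids, went from 0.104 ± 0.113 to 756 ± 11.3 FPKM, and Prm3, a protamine-related gene between Prm2 and Tnp2, was listed at 0 in spermatogonia and at 328, 328 and 325 FPKM in round spermatids.

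The promoters of these genes are shown because cAMP response elements, which the spermatid factor CREM binds, are known from several of them, and those of 2 MCM genes because E2F factors act on replication genes. A window runs from 250 bases before to 50 bases after a gene's start, read 5′ to 3′ on the gene's strand from RefSeq on GRCm38.p6. Capitals mark, on either strand, TGACNTCA, a cAMP response element with a free middle base, in the first 4 windows, and TTTCCCGC, an E2F site, in the last 2.
Prm1 (chr16:10796774-10797073, minus strand): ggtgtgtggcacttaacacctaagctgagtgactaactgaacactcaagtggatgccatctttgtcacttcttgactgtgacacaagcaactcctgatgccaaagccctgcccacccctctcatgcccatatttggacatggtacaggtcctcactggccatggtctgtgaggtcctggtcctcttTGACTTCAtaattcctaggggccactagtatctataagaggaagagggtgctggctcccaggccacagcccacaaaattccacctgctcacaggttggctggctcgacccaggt
Tnp1 (chr1:73015850-73016149, minus strand): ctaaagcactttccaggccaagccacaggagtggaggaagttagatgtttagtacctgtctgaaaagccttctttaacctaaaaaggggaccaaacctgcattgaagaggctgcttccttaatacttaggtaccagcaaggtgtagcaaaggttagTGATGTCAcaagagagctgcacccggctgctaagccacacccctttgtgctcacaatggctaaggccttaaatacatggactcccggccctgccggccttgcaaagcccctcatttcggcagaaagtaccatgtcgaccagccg
Gapdhs (chr7:30743632-30743931, minus strand): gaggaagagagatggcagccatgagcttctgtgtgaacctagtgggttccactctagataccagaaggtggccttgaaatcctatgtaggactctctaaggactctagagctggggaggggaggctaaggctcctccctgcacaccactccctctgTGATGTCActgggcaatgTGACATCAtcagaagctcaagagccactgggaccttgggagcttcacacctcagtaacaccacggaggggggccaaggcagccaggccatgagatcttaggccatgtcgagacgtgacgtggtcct
Akap4 (chrX:7067265-7067564, plus strand): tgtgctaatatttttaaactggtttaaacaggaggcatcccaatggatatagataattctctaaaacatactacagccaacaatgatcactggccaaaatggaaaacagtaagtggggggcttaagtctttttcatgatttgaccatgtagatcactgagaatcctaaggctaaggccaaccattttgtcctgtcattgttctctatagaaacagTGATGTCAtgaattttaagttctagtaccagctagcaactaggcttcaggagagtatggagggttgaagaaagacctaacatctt
Mcm3 (chr1:20820263-20820562, minus strand): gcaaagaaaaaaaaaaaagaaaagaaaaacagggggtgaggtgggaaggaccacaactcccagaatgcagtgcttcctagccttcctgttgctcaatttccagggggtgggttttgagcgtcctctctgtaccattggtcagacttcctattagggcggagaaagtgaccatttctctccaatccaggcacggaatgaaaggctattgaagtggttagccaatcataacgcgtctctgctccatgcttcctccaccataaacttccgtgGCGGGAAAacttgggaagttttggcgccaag
Mcm7 (chr5:138171834-138172133, minus strand): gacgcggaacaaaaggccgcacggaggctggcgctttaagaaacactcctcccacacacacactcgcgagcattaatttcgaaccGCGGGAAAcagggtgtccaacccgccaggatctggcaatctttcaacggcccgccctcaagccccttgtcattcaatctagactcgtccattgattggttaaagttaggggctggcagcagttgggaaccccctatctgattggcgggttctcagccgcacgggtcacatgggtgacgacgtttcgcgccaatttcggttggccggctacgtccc

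The match begins 64 bases before the start in Prm1, 94 before in Tnp1 and 35 before in Akap4, and the window of Gapdhs holds 2 matches. RefSeq lists a second start for Akap4, Gapdhs and Mcm7, and the windows there hold 0, 2 and 0 matches. A gene was counted as holding a motif when any of its windows did. TGACNTCA was found in 8.83% of the 32851 windows in the RefSeq table. It was in 520 of 3984 protein-coding genes that rose and had a window (13.1%), in 283 of 3595 not called (7.87%) and in 255 of 3552 that fell (7.18%). Of the lists described in the following paragraphs, 7 of 27 spermatid chromatin genes held it (Prm1, Tnp1, Hils1, Prm3, Fhl5, Nr6a1 and Sun5), 11 of 34 acrosome genes, 6 of 39 flagellum genes and 1 of 30 DNA replication genes. The full palindrome TGACGTCA, which the first motif includes, was in 3.74% of the genes that rose, 3.95% of those not called and 2.45% of those that fell. The windows of Prm2, Tnp2, Pgk2 and Ldhc held no match. TTTCCCGC was in 6 of 30 DNA replication genes, Cdc6, Gins3, Mcm3, Mcm7, Pold1 and Rfc3, against 2.10% of tested protein-coding genes and 1.07% of all windows. These are matches of letters, and binding was not measured.

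Of the spermatid chromatin and transcription list, 25 of 33 tested members rose and 1 fell (median log2 fold change 5.01), against 35.9% rising among protein-coding genes. Of the 33, 11 were under 0.5 FPKM in every spermatogonia library, so that their rises follow in large part from the filter. Of the 22 others 14 rose and 1 fell. Among protein-coding genes not under that limit, 3521 of 12932 rose. With equal library sums 22 of the 33 rose and 4 fell, against 23.5% and 52.4%. The shares over protein-coding genes on the 2 scales are the background for the counts of the other lists too. The member that fell was Rara, a retinoic acid receptor (−1.11). The bromodomain gene Brwd1 (−0.93) and the TFIID subunit gene Taf7l (−0.79) were lower but did not reach the fold needed for a call, and H3f3b, which encodes the replacement histone H3.3, was high in both stages, at 439, 493 and 418 FPKM in spermatogonia and 562, 594 and 572 FPKM in round spermatids (0.36).

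Acrosome and sperm-egg binding genes rose almost as a block: 39 of 40 tested members rose and 0 fell, the median log2 fold change was 9.62, and 37 rose and 1 fell with equal library sums. Every member in the table passed the filter, but 27 were under 0.5 FPKM in each spermatogonia library and passed through the later stages only. Their rises and the median follow in large part from the filter. Of the 13 others 12 rose and 0 fell. Crisp2, for a cysteine-rich secretory protein of the acrosome and tail, was at 0, 0.0963 and 0.0413 FPKM in spermatogonia and at 2181, 1901 and 2090 FPKM in round spermatids (log2 fold change 13.84, SE 0.198). Adam3, for a sperm surface protein needed to reach the egg in mice, was listed at 0 in spermatogonia and at 776, 748 and 815 FPKM in round spermatids, so no fold is given. Spaca3, for a lysozyme-like acrosomal protein, was likewise listed at 0 before and reached 333, 348 and 333 FPKM, and Acrv1, for the acrosomal protein SP-10, went from 0.195 ± 0.0933 to 247 ± 11.1 FPKM. Adam2, the partner of Adam3, and Adam5 rose by 11.28 and 11.43 on the log2 scale. The member not called was Gopc, which encodes a Golgi protein that other tissues also use (0.21). Tex101, a germ cell surface protein, rose least among those called (1.17), from 64.2, 62.5 and 48.3 FPKM.

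All 48 tested flagellum and axoneme genes rose, also with equal library sums, with a median log2 fold change of 7.94. Of the 48, 27 were under 0.5 FPKM in every spermatogonia library and passed the filter through the later stages only. Their rises and the median follow in large part from the filter. The 21 others rose as well. Odf1, for an outer dense fibre protein of the tail, was at 0.0448, 0.0249 and 0.0421 FPKM in spermatogonia and at 875, 896 and 896 FPKM in round spermatids (12.66). Ropn1, for a protein of the fibrous sheath, was listed at 0 in spermatogonia and at 636, 647 and 652 FPKM in round spermatids. Akap4, the X-linked gene for the main protein of the fibrous sheath, rose to 481 ± 23.6 FPKM from 0.0414 ± 0.0222 (11.74), and Akap3 to 417 ± 7.41 FPKM. At the other end of the list stood parts that other ciliated cells share: the intraflagellar transport gene Ift88 rose by 2.72 and the axonemal dynein gene Dnah2 by 2.96 on the log2 scale. Meig1, needed for assembly of the tail in mice, was among the 10 highest genes of round spermatids, at 2712, 2468 and 2576 FPKM against 3.36, 3.61 and 3.39 in spermatogonia (9.51).

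Sperm ion channel and signalling genes rose in 20 of 22 tested cases (median 7.80). With equal library sums 19 rose and 1 fell. Of the 22, 13 were under 0.5 FPKM in every spermatogonia library and passed the filter through the later stages only. Their rises follow in large part from the filter. Of the 9 others 7 rose and 0 fell. Catsper1, a pore subunit of the calcium channel of the tail, was at 0, 0 and 0.0188 FPKM in spermatogonia and at 56.7, 58.7 and 60.7 FPKM in round spermatids. Plcz1, which encodes the phospholipase that sperm bring to the egg to start its calcium waves, was listed at 0 before and at 197, 175 and 195 FPKM. The calcium pump gene Atp2b4 (−0.42) and the proton channel gene Hvcn1 (0.32) were not called. Among testis kinases and phosphatases 19 of 22 rose and 1 fell (median 6.74), and 18 and 2 with equal library sums. Here 7 of the 22 passed the filter through the later stages only, and of the 15 others 12 rose and 1 fell. Tssk1 and Tssk2, neighbouring genes of testis-specific serine kinases, rose by 9.29 and 9.33 on the log2 scale, to 340 to 347 and 369 to 382 FPKM, and the phosphatase gene Dusp13 rose from 0.104 ± 0.093 to 390.4 ± 10.99 FPKM. The X-linked kinase gene Pim2 fell (−1.36).

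**Figure D2:**
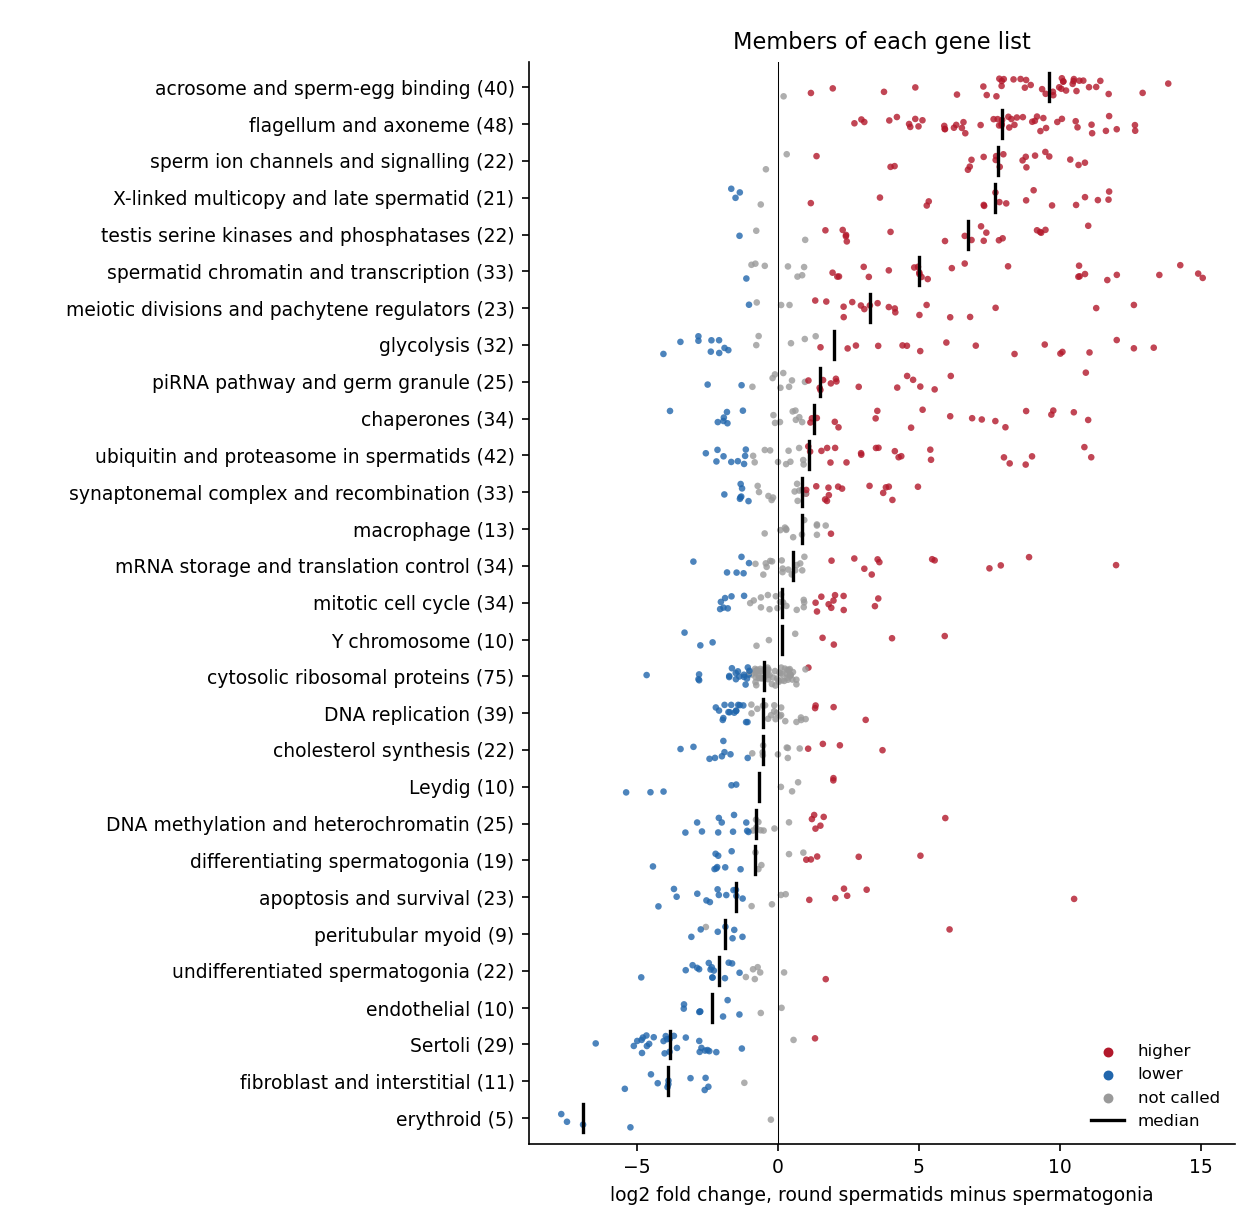
Log2 fold change of every tested member (points) of each gene list (rows, with the number of members tested), round spermatids relative to spermatogonia. Red points rose, blue points fell, grey points were not called, and the black bar is the list median. Flagellum, acrosome, channel and kinase lists have medians of 6.74 to 9.62, while the lists of undifferentiated spermatogonia and of Sertoli, fibroblast and erythroid cells have medians of −2.07 to −6.90.

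Genes of energy metabolism moved both ways. Of 32 tested glycolysis genes 17 rose and 10 fell (median 1.99; 16 and 12 with equal library sums), and the list holds testis copies beside the enzymes of other tissues. Of the 32, 6 were under 0.5 FPKM in every spermatogonia library, so that their rises follow in large part from the filter. Of the 26 others 11 rose and 10 fell. Ldhc, the lactate dehydrogenase of sperm, had the highest mean of all protein-coding genes in round spermatids, 4540 ± 101 FPKM, with 0.312, 0.485 and 0.262 FPKM in spermatogonia and 4506, 4460 and 4653 in round spermatids (13.32, SE 0.148). In pachytene cells it already stood at 4240 ± 161 FPKM. Gapdh, the glyceraldehyde-3-phosphate dehydrogenase of most cells, was at 132, 130 and 220 FPKM in spermatogonia and 20.6, 22.6 and 23.1 FPKM in round spermatids (−2.81). Its copy Gapdhs, bound to the fibrous sheath, was at 0, 0 and 0.0374 FPKM and then at 433, 445 and 500.2 FPKM. Pgk1, the X-linked phosphoglycerate kinase, was at 15.6, 16.98 and 39.2 FPKM and then at 5.19, 5.02 and 5.04 FPKM (−2.08), while its autosomal retrocopy Pgk2 was at 0.0236, 0.0134 and 0 FPKM and then at 724, 674 and 712 FPKM (12.62). The hexokinases differed too: Hk2 fell (−3.45) and Hk1, of which a sperm form exists, rose from 7.15 ± 2.22 to 442 ± 13.3 FPKM (5.97). Slc2a5, a fructose transporter, rose by 10.09 on the log2 scale.

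The same was examined in 36 pairs of a widely used gene and its testis copy or relative. The testis member rose in 33 pairs and fell in 0, with a median log2 fold change of 5.90, and the somatic member fell in 23, rose in 6 and was not called in 7, with a median of −1.45. Both happened in 21 pairs. Over all tested protein-coding genes 35.9% rose and 32.2% fell, or 23.5% and 52.4% with equal library sums. The pairs were listed for their testis member, so a rise of that member was likely from the choice. With equal library sums the testis member rose in 31 pairs and fell in 2, Slc25a31 and Taf7l, and the somatic member fell in 26 and rose in 3. The testis member was the higher of the pair in 5 cases in spermatogonia and in 30 in round spermatids. Ldha rose beside Ldhc, from 28.8, 29.2 and 65.3 to 796, 828 and 823 FPKM (4.42), and the somatic genes Ybx1, Tbp, Ppp3ca, Capza1 and Eno1 rose as well, the last 3 not with equal library sums. Slc25a31, the testis ADP/ATP carrier, was not called, at 70.1 ± 7.96 and 72.5 ± 4.39 FPKM, while its X-linked relative Slc25a5 fell from 84.8 ± 12.3 to 8.27 ± 0.886 FPKM (−3.34). Cstf2t and Taf7l were also not called.

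Of the 11 X-linked somatic members 10 fell, while 58.7% of all tested X-linked protein-coding genes fell. Rpl10 and Rpl39, for ribosomal proteins, fell by 2.81 and 2.79 on the log2 scale, and their autosomal copies rose, Rpl10l from 21.7, 21.7 and 16.9 to 317, 319.5 and 326 FPKM and Rpl39l by 4.14 on the log2 scale. Pdha1 fell (−3.35) and Pdha2 rose (5.40), Cox7b fell (−3.44) and Cox7b2 rose (4.36), and Cetn2, a centrin, fell (−1.33) while Cetn1 rose (10.83). Spermatogonia replicate 3 was the high library for several somatic members, with 52.3 FPKM of Pdha1 against 11.01 and 11.3 in the other two, and without it Pdha1 fell by 2.61 and Cox7b by 2.73. The member that did not fall was Cstf2, for an mRNA cleavage factor (0.84). Near-identical copies can share reads, and how the authors treated such reads is not given in the sources used here.

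**Figure D3:**
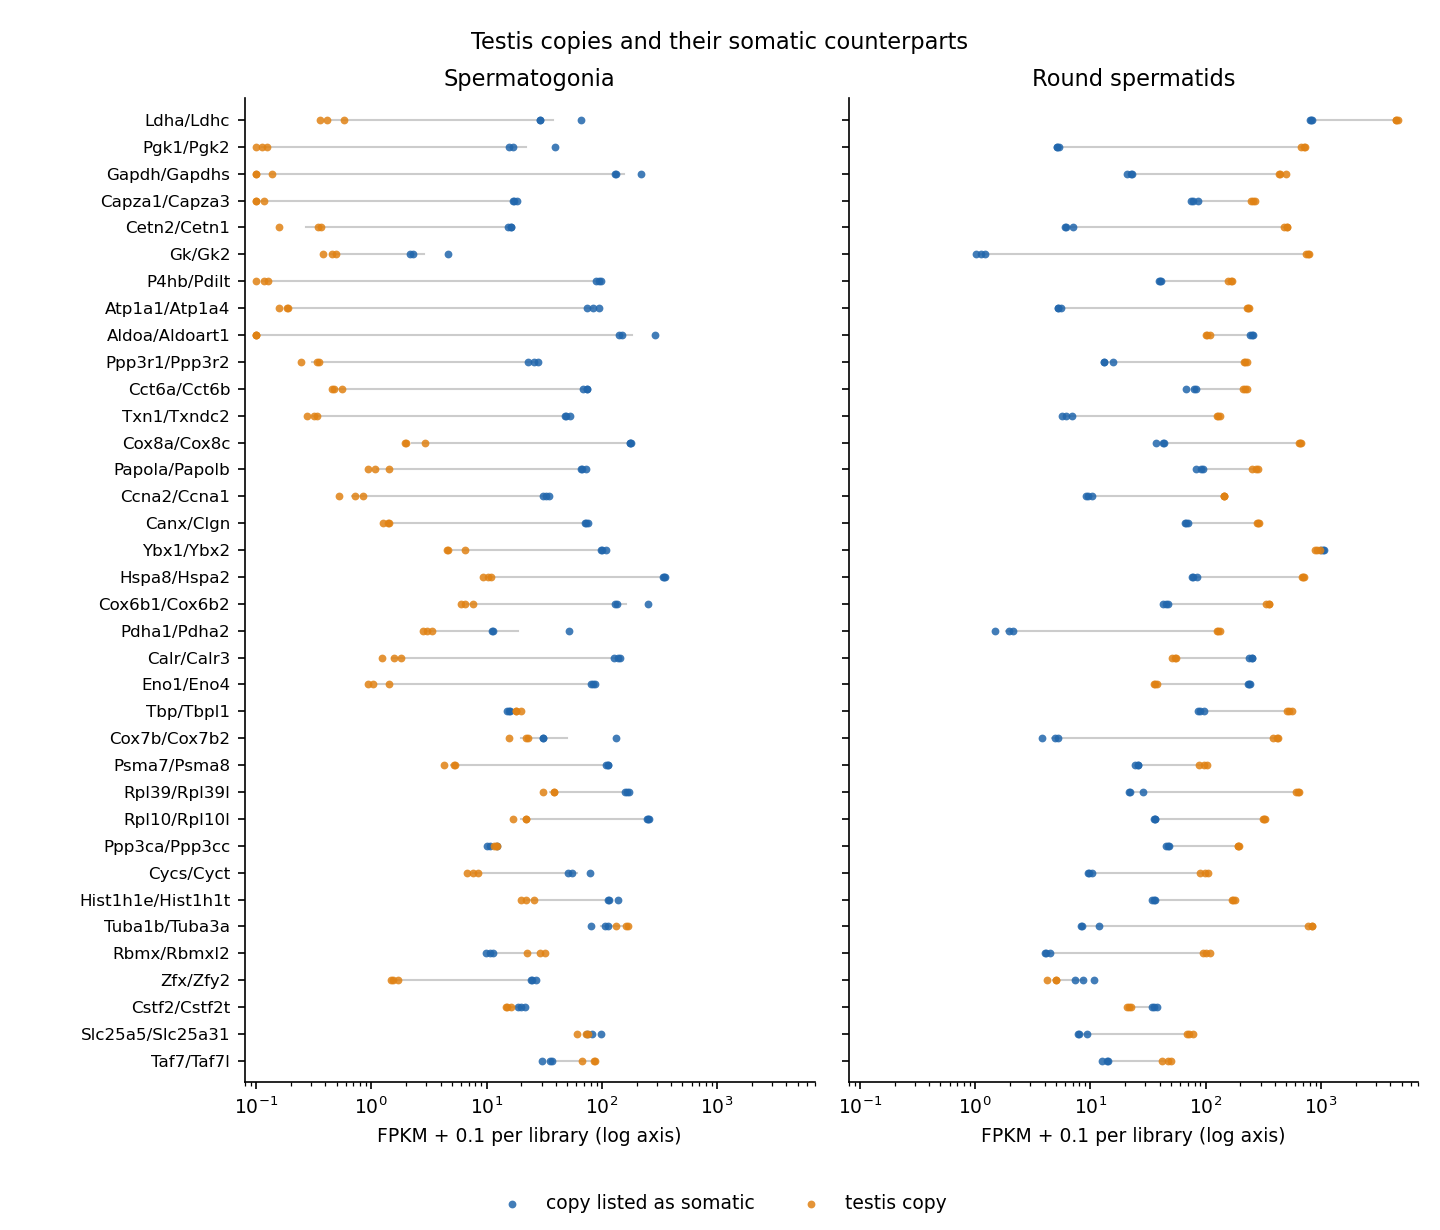
FPKM + 0.1 (log axis) of the somatic gene (blue) and its testis copy or relative (orange) in 36 pairs (rows), in the 3 spermatogonia libraries (left panel) and the 3 round spermatid libraries (right panel), with a grey line joining the geometric means of both. The testis gene is the higher one in 5 pairs on the left and in 30 on the right.

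Genes of meiosis moved both ways, with more rising than falling on the deposited scale. The list of meiotic divisions and pachytene regulators rose in 19 of 23 tested members (median 3.26), with 17 rising and 3 falling with equal library sums. It includes Hspa2, an Hsp70 chaperone of spermatocytes, at 10.9, 10.2 and 9.21 FPKM and then 686, 704 and 713 FPKM (6.11), and Ccna1, the meiotic cyclin, which rose from 0.600 ± 0.158 to 145 ± 0.636 FPKM (7.72). The member that fell was Cpeb1, a translation regulator (−1.02), and without round spermatid replicate 2 it was not called. Of the 23, 3 passed the filter through the later stages only, and of the 20 others 16 rose and 1 fell. Of 33 synaptonemal complex and recombination genes 15 rose and 7 fell (median 0.87), but 7 rose and 12 fell with equal library sums. Cntd1 (4.97), needed for crossovers, the meiotic cohesin Rec8 (4.06) and Spo11 (3.93), the enzyme that makes the breaks, had the largest rises. Mei4 (−1.89) and Rec114 (−1.30), both partners of the break machinery, fell, as did the X-linked Tex11 (−1.34).

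piRNA pathway and germ granule genes rose in 15 and fell in 2 of 25 cases (median 1.51), and with equal library sums in 8 and 7. Tdrd6, a scaffold of the chromatoid body, was at 0.0526, 0.128 and 0.103 FPKM and then at 353, 374 and 386 FPKM (10.91). Kif17, a kinesin found in that granule, rose by 6.13, the helicase gene Ddx25 by 5.56 and Piwil1, for MIWI, by 5.05 on the log2 scale. Those that fell were Piwil4 (−2.49), for MIWI2 of the fetal germ line, and Fkbp6 (−1.28). Genes of mRNA storage and translation control rose in 12 of 34 cases and fell in 6 (median 0.55), 11 and 15 with equal library sums, so that their rising share of 35.3% was close to the 35.9% of protein-coding genes. Ybx2, for the Y-box protein MSY2 that coats stored transcripts, was at 6.41, 4.51 and 4.42 FPKM and then at 929, 975.2 and 888 FPKM (7.50). The testis poly(A)-binding protein gene Pabpc2, a retrocopy on chromosome 18, rose from under 0.01 FPKM in each spermatogonia library to 422, 411 and 446 FPKM, and the testis poly(A) polymerase gene Papolb rose by 7.90 on the log2 scale. The X-linked translation factor gene Eif2s3x fell (−2.99).

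Protein turnover and folding genes moved in both directions. Of 42 ubiquitin and proteasome genes 22 rose and 9 fell (median 1.11; 16 and 14 with equal library sums). Here 5 of the 42 passed the filter through the later stages only, and of the 37 others 17 rose and 9 fell. Klhl10, a cullin adaptor needed for spermatid maturation in mice, rose from 0.508 ± 0.125 to 308 ± 2.53 FPKM. Psma7, a proteasome subunit, fell (−2.14) while its testis relative Psma8 rose (4.28), and Uchl1, a deubiquitinase abundant in spermatogonia, fell from 182, 178 and 134 to 36.4, 35.3 and 36.4 FPKM. Among 34 chaperone genes 19 rose and 7 fell (median 1.30; 14 and 10 with equal library sums). Of these 34, 5 passed the filter in that way, and of the 29 others 14 rose and 7 fell. The small heat shock gene Hspb9 reached 1052 ± 6.54 FPKM from under 1 FPKM, and Hspb1 fell (−3.82). Apoptosis and survival genes fell in 13 and rose in 6 of 23 cases (median −1.47; 16 and 4 with equal library sums): Bok (−4.23), Bcl2 (−3.68) and Casp8 (−3.58) fell, and Bcl2l14 rose from 0.101 ± 0.0663 to 280.5 ± 6.11 FPKM (10.50).

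Genes of undifferentiated spermatogonia fell in 15 of 22 tested cases and rose in 1 (median −2.07), against 32.2% falling among protein-coding genes, and with equal library sums 21 fell, against 52.4%. Dusp6, a feedback phosphatase of ERK signalling, went from 59.1, 67.2 and 59.4 FPKM to 1.99, 2.05 and 2.16 FPKM (−4.84), the largest fall of the list. The laminin receptor subunits Itga6 (−3.26) and Itgb1 (−2.86), used to select spermatogonial stem cells, fell too. Somatic cells of the tubule also express these receptors and Dusp6. Id4, an inhibitor of differentiation of stem spermatogonia, went the other way, from 3.88, 4.19 and 3.03 to 12.02, 11.4 and 12.96 FPKM (1.70), and was not called with equal library sums. Differentiating spermatogonia were represented by 19 tested genes, of which 9 fell and 5 rose (median −0.79; 12 and 2 with equal library sums). Stra8, which starts meiosis under retinoic acid, went from 41.6, 40.1 and 33.3 to 8.39, 7.68 and 8.57 FPKM (−2.20), Kit from 19.3 ± 2.38 to 5.20 ± 0.157 FPKM (−1.86), and Ccnd2, a cyclin of the G1 phase, from 19.95, 22.8 and 23.6 to 0.998, 0.892 and 0.909 FPKM (−4.42). Dmrtb1, which controls the switch from mitosis to meiosis in mouse spermatogonia, rose from 14.4 ± 2.48 to 476 ± 14.5 FPKM (5.05), and the germ cell helicase gene Ddx4 by 2.87.

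Of 39 DNA replication genes 16 fell (41.0%) and 4 rose (10.3%), against 32.2% and 35.9% of protein-coding genes (median −0.53; 30 and 1 with equal library sums). Mcm2 went from 41.5, 40.2 and 32.6 to 9.98, 9.78 and 9.85 FPKM (−1.93), and the licensing factor gene Cdt1 (−2.08), thymidylate synthase, Tyms (−2.20), and thymidine kinase, Tk1 (−1.95), fell as well. Mcm3, whose window is printed above, fell by 1.47. Mcm7, with the same motif, rose from 45.8, 49.0 and 38.6 to 106, 116 and 115 FPKM (1.34), and so did Rfc2 (3.11), Rpa1 (1.98) and Gins4 (1.32); only Rfc2 was called with equal library sums. Among 34 mitotic genes 11 rose (32.4%) and 7 fell (20.6%), with a median of 0.15, and 4 rose and 18 fell with equal library sums. The largest rises were those of Ccnb2 (3.56), a mitotic cyclin, and of Aurka (3.44), a spindle kinase, and Cdk4 (−2.04), the centromere histone gene Cenpa (−2.02) and E2f1 (−1.87) fell. The DNA methylation and heterochromatin list fell in 11 (44.0%) and rose in 6 of 25 cases (median −0.77), and in 18 and 1 with equal library sums, against 32.2% and 52.4% of protein-coding genes falling on these scales. All 3 genes of the TET enzymes, which oxidise methylcytosine, fell, Tet2 most (−3.28, from 2.51 ± 0.401 to 0.1697 ± 0.0407 FPKM), Dnmt3b fell (−2.11), and Dnmt3l rose from 0.253, 0.218 and 0.200 to 19.6, 21.03 and 18.4 FPKM (5.94).

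Of 75 cytosolic ribosomal protein genes 56 were not called, 18 fell and 1, Rpl36, rose (1.08); with equal library sums 59 fell and 0 rose. The largest fall was that of the X-linked Rps4x, from 201, 208 and 227 to 8.41, 8.90 and 7.77 FPKM (−4.65), followed by the X-linked Rpl10, Rpl36a and Rpl39. Leaving out round spermatid replicate 3 or spermatogonia replicate 1 made 2 ribosomal genes rise. Eef1a1, a translation elongation factor gene and the highest protein-coding gene of spermatogonia, was at 1252, 1233 and 1209 FPKM and at 1355, 1321 and 1402 FPKM (0.14, −0.12 with equal library medians and −1.12 with equal sums). Cholesterol synthesis genes fell in 9 and rose in 4 of 22 cases (median −0.53; 14 and 1 with equal library sums). Msmo1, a sterol oxidase gene, fell (−2.99), and Fdft1, for squalene synthase, rose from 18.02, 18.1 and 16.04 to 223, 225 and 237 FPKM (3.71).

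Among the largest falls were genes known from other cells of the testis and from blood. Edn1, for the vasoactive peptide endothelin 1, went from 54.4, 64.3 and 55.7 to 0.199, 0.136 and 0.165 FPKM (−7.77, SE 0.116, limma, adjusted p = 9.91e-12). Amh, the hormone of Sertoli cells, went from 35.9, 39.1 and 31.1 to 0.514, 0.148 and 0.330 FPKM (−6.45), and Mmp2, Cyr61 and Eln, of the extracellular matrix, fell by 6.31, 6.30 and 6.24 on the log2 scale. Of the Sertoli list 27 of 29 tested genes fell and 1, Rhox5, rose, and with equal library sums 27 fell and 0 rose. The summed level of the list was 2616 to 3078 FPKM in spermatogonia and 247 to 259 FPKM in round spermatids. Clu, a secreted chaperone, contributed 532 and 41.4 FPKM to these, and Dmrt1 is on this list and on that of differentiating spermatogonia. In bulk samples, fewer cells of a type and less RNA per cell cannot be told apart, and the part of Sertoli and other cells in the falls of spermatogonial genes was not tested.

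The other lists did not all move the same way. With equal library sums, 11 fibroblast, 10 endothelial, 5 erythroid, 6 Leydig, 8 myoid and 1 of the macrophage genes fell, and 1 Leydig and 1 myoid gene rose. Fibroblast and interstitial genes fell in 10 of 11 cases, with a sum of 205 to 435 FPKM in spermatogonia and 33.4 to 33.9 in round spermatids, endothelial genes in 8 of 10, with 40.6 to 93.9 and 13.97 to 16.3 FPKM, and erythroid genes in 4 of 5, with 114 to 317 and 2.16 to 3.55 FPKM. The globin genes Hbb-bt and Hba-a2 were listed at 0 in all 3 round spermatid libraries. Of 10 Leydig genes 5 fell and 2, Insl3 and Hsd3b6, rose, with sums of 261 to 298 and 53.6 to 63.6 FPKM. Of 9 peritubular myoid genes 7 fell, but the summed level was 136 to 215 FPKM in spermatogonia and 217 to 225 FPKM in round spermatids. Actg2, a smooth muscle actin on that list, was at 2.92, 2.31 and 3.06 and then at 196, 189 and 195 FPKM (6.09). Macrophage genes, summing to 10.5 to 73.6 and 39.7 to 43.4 FPKM, fell in 0 of 13 cases and 1, Emr1, rose. Spermatogonia replicate 3 decided that list: Lyz2 was at 1.94, 1.99 and 29.1 FPKM in spermatogonia and 14.1, 12.2 and 12.6 in round spermatids. Without replicate 3, 8 macrophage genes rose, and without spermatogonia replicate 1 or 2, 0 did. The same library was the highest in Dcn, a fibroblast proteoglycan (23.0, 20.1 and 126 FPKM), and in Des, a muscle filament (1.76, 1.33 and 65.8 FPKM), neither of which was called. It was also highest in the globins.

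**Figure D4:**
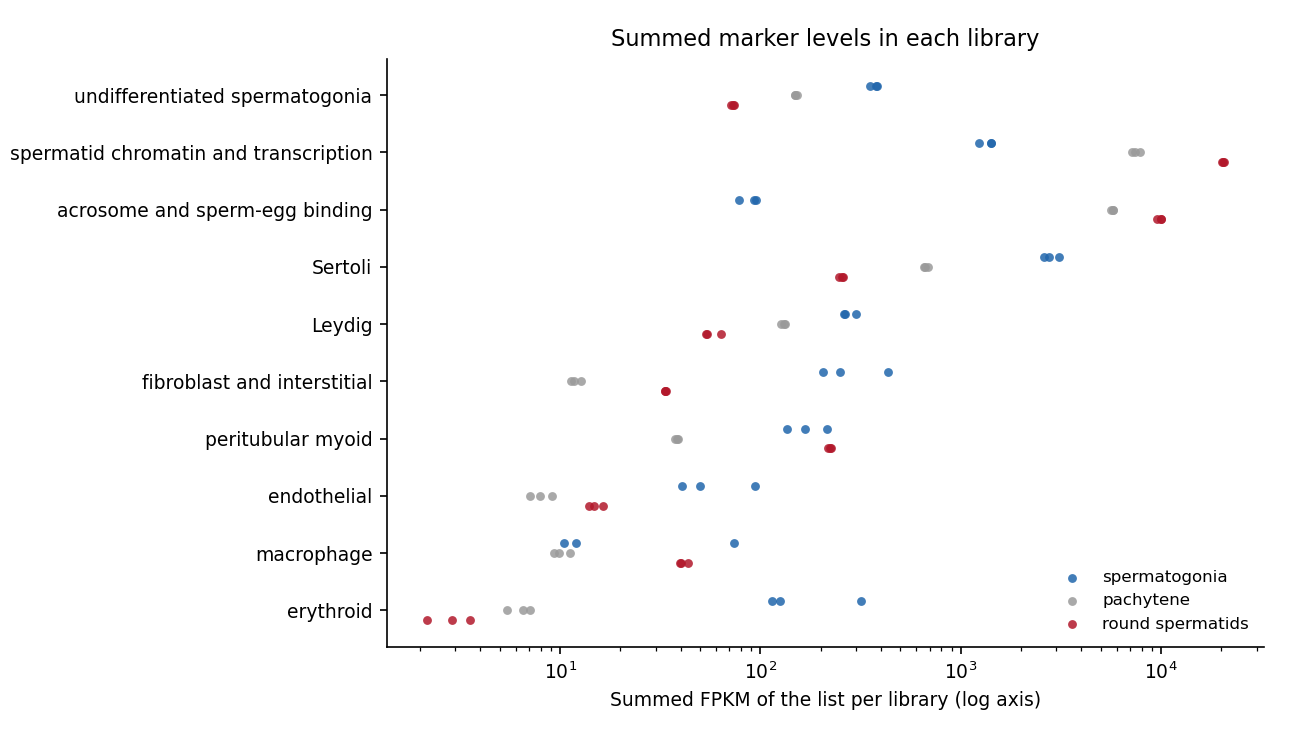
Summed FPKM (log x axis) of 3 germ cell lists and 7 lists of other cells (rows) in each library (points), with spermatogonia in blue, pachytene cells in grey and round spermatids in red. Sertoli sums are 2616 to 3078 FPKM in spermatogonia and 247 to 259 FPKM in round spermatids, and spermatogonia replicate 3 is set off from the other 2 for macrophage, fibroblast, endothelial and erythroid genes.

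X-linked genes as a whole stayed lower in round spermatids. Of 625 tested X-linked protein-coding genes 367 fell (58.7%) and 164 rose (26.2%), with a median log2 fold change of −1.47, against 31.2% and 36.2% and a median of 0.10 for 14131 autosomal genes. With equal library sums 426 X-linked genes fell (68.2%) and 137 rose (21.9%), against 52.4% and 23.5% of all tested protein-coding genes. Single autosomes had 26.9% to 35.9% of genes falling. The median level of X-linked genes on the log2 scale was 2.18 to 2.22 in spermatogonia and 1.21 to 1.36 in round spermatids, and 0.03 to 0.09 in the pachytene libraries, where the sex chromosomes are known to be silenced. That of autosomal genes was 2.67 to 2.78, 2.88 to 2.92 and 2.81 to 2.83. The calpain gene Capn6 fell most among X-linked genes above the 10 FPKM floor, from 23.1, 27.0 and 23.5 to 0.497, 0.524 and 0.689 FPKM (−5.21). A list of multicopy and late spermatid genes is named for the X but has a few autosomal members. In it 17 of 21 tested genes rose and 3 fell (median 7.71), and 16 and 4 with equal library sums. Of the 21, 16 were under 0.5 FPKM in every spermatogonia library and passed the filter through the later stages only. Their rises and the median follow in large part from the filter. Of the 5 others 1 rose and 3 fell. Akap4 and Cypt1 rose most. Tsga8, a spermatid nuclear protein gene, went from 0.194, 0.366 and 0.193 to 520, 526 and 516 FPKM (10.57), and Prdx4, a peroxiredoxin, from 78.5, 78.3 and 66.4 to 166, 159 and 163 FPKM (1.13).

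On the Y chromosome 52 of 172 protein-coding genes in the table passed the filter. Of these, 42 were under 0.5 FPKM in every spermatogonia library and passed through the later stages only, so the median of 4.29 and the 44 rises of the tested genes follow in large part from the filter. Of the 10 others 2 rose and 4 fell. Most of the 52 tested genes are near-identical copies whose reads can be shared, so single values of these copies are uncertain. Among the single-copy genes of the Y list, Kdm5d, a histone demethylase, went from 7.35, 7.68 and 8.02 to 0.788, 0.710 and 0.577 FPKM (−3.31), and Ddx3y (−2.75) and Uty (−2.31) fell as well. Zfy1 and Zfy2, zinc finger genes, rose by 1.99 and 1.59 on the log2 scale but were not called with equal library sums. Sly, a multicopy regulator of sex-linked genes in spermatids, was listed at 0 and then at 6.70, 5.31 and 5.87 FPKM. Eif2s3y, the Y-linked partner of the fallen Eif2s3x and a gene needed for spermatogonial proliferation in mice, was at 44.6 ± 2.62 FPKM in spermatogonia and 68.5 ± 4.34 in round spermatids, with 7.84 in pachytene cells (0.62, not called).

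**Figure D5:**
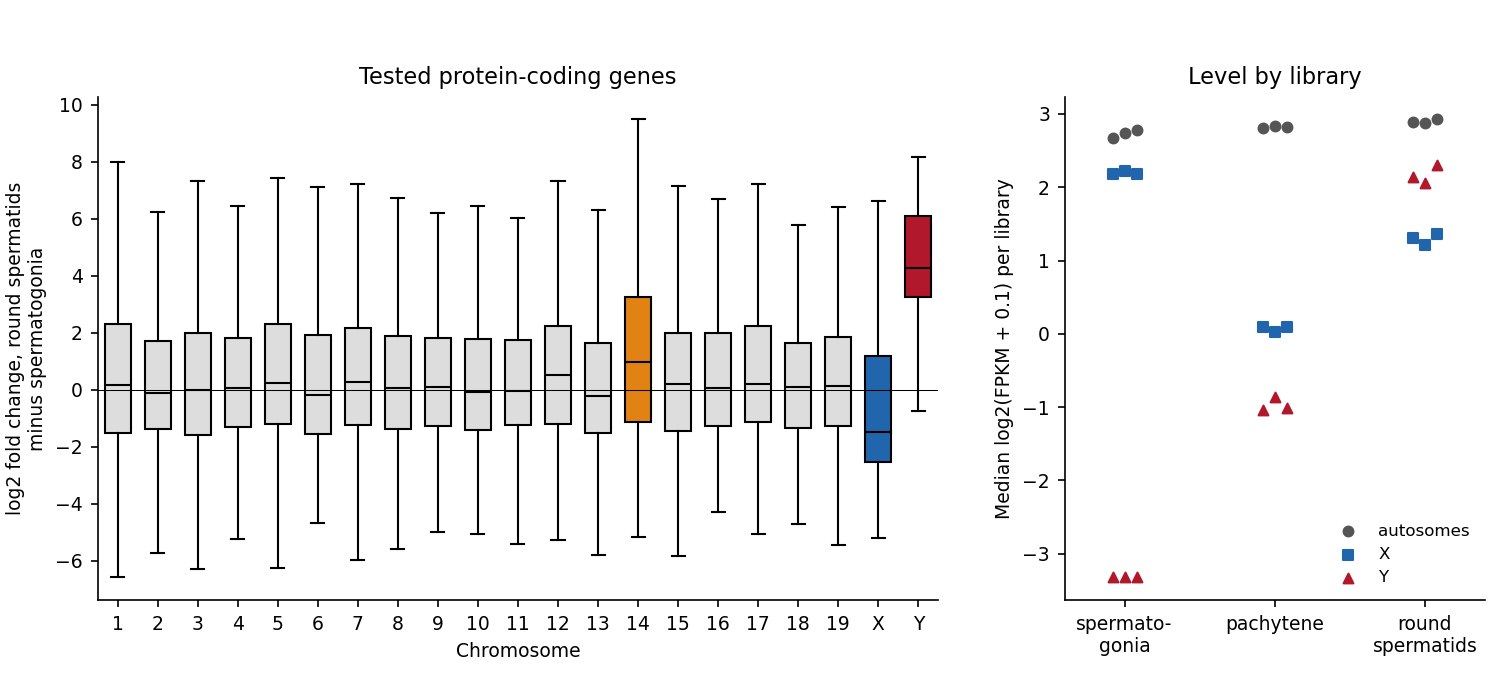
Left, log2 fold changes of tested protein-coding genes on each chromosome, round spermatids relative to spermatogonia, as boxes from the lower to the upper quartile with the median as a line, whiskers at most 1.5 times the box height beyond it and points further out not drawn. Right, the median log2(FPKM + 0.1) of autosomal, X-linked and Y-linked genes in each library (points). The X median is −1.47 and X-linked levels are lowest in the pachytene libraries.

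Net comparison of the ends hid genes that moved at pachytene and came back. Of 4712 tested protein-coding genes not called between spermatogonia and round spermatids, 65 had a pachytene mean at least 4-fold above both, led by Calm2, a calmodulin gene, at 216 ± 9.06, 1413 ± 9.75 and 238 ± 13.8 FPKM in the order of development. Cks2, a Cdk subunit needed for the meiotic divisions, was at 61.8, 484 and 81.9 FPKM. In 219 genes the pachytene mean was at most 1/4 of both. Uba1, the X-linked ubiquitin-activating enzyme gene, was at 59.1 ± 2.49, 9.13 ± 0.972 and 59.4 ± 3.37 FPKM, and the meiotic gene Tex15, on chromosome 8, at 94.2, 9.41 and 87.6 FPKM.

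On the deposited scale, lincRNA, antisense and snoRNA genes in the mRNA table were less balanced than coding genes. Of 581 tested lincRNAs 370 rose (63.7%) and 98 fell (16.9%), against 38.5% and 30.1% of all features. Of 713 antisense genes 453 rose (63.5%) and 97 fell (13.6%). With equal library sums the counts were 323 and 167, and 370 and 182. How many of them passed the filter through the later stages only was not counted. In the lncRNA table the same types were less one-sided. There 642 of 1442 tested lincRNAs rose and 331 fell, and 594 and 389 of 1656 antisense genes. Of 139 snoRNA genes 0 rose and 82 fell. The lincRNA RP24-176G22.2 (chr17:49112263-49113535) was highest among the rises, at 0, 0.0441 and 0.0380 FPKM and then at 776, 753 and 791 FPKM (12.59), and the antisense gene RP23-445K8.1, which overlaps Tnp1 on the opposite strand, was at 0, 0 and 0.131 FPKM and then at 298, 274 and 293 FPKM. Whether counting used the strand is not given in the sources used here, so reads of overlapping genes cannot be told apart. Small RNA genes led the falls, the snoRNA gene Gm22303 from 37.1, 26.5 and 33.4 FPKM to a listing at 0 in every round spermatid library.

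In the lncRNA table, whose FPKM are on a larger scale, 4009 features were tested: 1505 rose (37.5%), 1000 fell (24.9%) and 62.5% were called, and groups did not overlap for 71.4%. With equal library medians 1249 rose and 1458 fell, which moved the rising share from 60.1% to 46.1% and the median by −0.92, so the balance of directions depends on the scaling. A pair of the largest rises was also named in the mRNA table: RP24-176G22.2 was at 0, 1.78 and 1.41 FPKM and then at 18048, 17905 and 32369.7 FPKM on this scale (15.02), and RP23-445K8.1 rose by 14.57. Gm15517 (15.14) and Gm9999 (14.23) rose as well and are protein-coding in GENCODE M21. Folds of these 4 rest on libraries at or near 0 and shift with single spermatogonia libraries, from 13.99 to 17.42 for Gm15517, 13.60 to 16.51 for RP23-445K8.1, 13.66 to 15.78 for RP24-176G22.2 and 12.40 to 15.42 for Gm9999. Lyzl4os, opposite to the sperm lysozyme gene Lyzl4, rose from 0, 0 and 0.791 to 3061, 2610 and 4632 FPKM. The largest falls, Gm26632 (−7.61), which overlaps Rbpms, and the lincRNA Gm15137 (−7.58), each had at least 1 round spermatid library at 0. Without round spermatid replicate 1 they fell by 8.75 and 9.52.

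Of 27 tested lncRNAs with known roles 13 fell (48.1%) and 4 rose (median −1.48), against 24.9% falling and 37.5% rising in the lncRNA table. With equal library medians 20 fell and 3 rose (median −2.50), and with equal library sums 15 and 3. H19, an imprinted growth-related RNA, went from 2626, 1878 and 1238 to 36.3, 27.9 and 36.4 FPKM (−5.77, limma, adjusted p = 5e-07). The imprinted Meg3 and Rian of chromosome 12 fell by 4.11 and 3.06, Airn by 4.30, or 3.55 without round spermatid replicate 3, and the X-linked nuclear RNA Firre by 3.48 on the log2 scale. The snoRNA hosts Snhg1 (−3.17), Snhg12 (−2.63), Snhg3, Snhg6, Snhg5 and Gas5 all fell. Malat1, the most abundant, was at 29609.6, 21446 and 53077.5 FPKM and then at 3669, 3443 and 10300.3 FPKM (−2.67). Pvt1, next to Myc, rose from 32.6, 26.0 and 26.7 to 484, 412 and 547 FPKM (4.08), and Miat (5.13) and Hotair (5.88) rose from near 0, Hotair from 1.20, 0 and 0 FPKM and by 5.27 to 7.11 when single spermatogonia libraries were left out. Mirg, also of the Meg3 locus, rose by 1.21, but was not called without round spermatid replicate 1 (1.10), without spermatogonia replicate 2 (0.97) or with equal library medians (0.19).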

How the data were processed

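RNA of spermatogonia, pachytene spermatocytes and round spermatids was sequenced, 3 libraries each. Per the submitters' processing notes, the genome was mm10 and the tools included TopHat2 2.0.12 and Cuffdiff 2.2.1 besides FastQC and Trim Galore. Options, annotation and strand use are not stated there. Values are FPKM per feature and library, as the authors deposited them. From the mRNA table, 31 features lacking a library's value were dropped, and 38505 identifiers matched GENCODE M21 (GRCm38), the source of gene types and positions; 20660 are protein-coding. Promoter windows came from RefSeq (GRCm38.p6). Each table was fitted with limma 3.58.1 in R 4.3.3, over all 9 libraries and with the prior variance trending on the mean, and p-values were adjusted by Benjamini-Hochberg over all features tested. Equal library sums refers to protein-coding FPKM in the mRNA table, and to all features in the lncRNA table. Alternatives changed the pseudocount, filter, scaling, trend, libraries and replicate block.

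Genes, lists and pairs were chosen with earlier results of these data known. Named genes are the 10 largest protein-coding rises and falls above 10 FPKM, 5 of other types, the 10 most abundant per stage, 6 lncRNAs each way, up to 4 called members per list, all pairs, called Y genes and called known lncRNAs. A few genes that fall under this rule are not reported here. Exceptions to a count, genes at the end of a list and genes by pachytene level were picked after their values were seen. The lists of the Y chromosome (4 of 10 tested rose, 3 fell) and of the other cells are given in full in the counts.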

Additional observations from a re-analysis of the deposited data

How the results depend on the processing

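In the mRNA table the count of falling features moved by over 1.5 times under 2 alternatives: to 8870 with equal library sums and to 3007 with a filter of 5 FPKM. That filter left 11606 features to test, against 17987, so its count comes from a smaller set. In the lncRNA table neither the rising nor the falling count moved by over 1.5 times. Leaving out single libraries gave 6890 to 7027 rising and 5333 to 5441 falling features in the mRNA table, and 1413 to 1465 and 829 to 941 in the lncRNA table. With the replicate number as a block the counts were 6925 and 5421, and 1504 and 1011. Deviations of same-numbered libraries correlated at −0.028 to 0.031 and −0.038 to 0.011, so the numbers do not show a pairing, and the block changed no call of a named gene.

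Some named genes changed sign. With equal library medians they were Eef1a1 −0.12, Slc25a31 −0.20 and Cct6a −0.18. With equal library sums they were Eef1a1 −1.12, Rps29 −0.73, Rpl41 −0.67, Aldoa −0.79, Slc25a31 −1.21, Cct6a −1.18, Calr −0.40, Cstf2 −0.42, Cstf2t −0.76 and Papola −0.87, and Eef1a1, Slc25a31 and Cct6a were then called as falls. Leaving out single libraries moved Slc25a31 between −0.0420, without spermatogonia replicate 3, and 0.119, without spermatogonia replicate 2. These scalings change the level set to 0 by construction. Gm15655, a falling lncRNA, kept its direction but not its call without round spermatid replicate 1 (−6.10), and Emr1 kept its direction but not its call without spermatogonia replicate 1 (1.41) or 2 (1.48). Equal library sums also moved 29 of 60 list counts by over 1.5 times.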

Other observations

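Neighbouring genes were counted in windows of 5 Mb holding at least 15 tested protein-coding genes, 352 in all, an analysis chosen after the data were seen. On chromosome 14, 25 of 25 genes at 0 to 5 Mb rose, 38 of 43 at 5 to 10 Mb and 43 of 47 at 40 to 45 Mb, and these counts were 25, 37 and 42 with equal library sums. The windows were picked for these counts, and the filter shaped them: 25, 35 and 42 of the tested genes were under 0.5 FPKM in every spermatogonia library and passed through the later stages only, and of the 8 and 5 others in the later windows 3 and 1 rose. In the table the windows hold 40, 69 and 78 protein-coding genes. Most carry Gm numbers and are near-identical copies, so that single values are uncertain. Gm3149 went from 0, 0.0162 and 0 FPKM to 39.0, 36.1 and 43.0 FPKM, while Gm3486 was listed at 0 and then at 47.1, 39.2 and 41.5 FPKM. On chromosome 5 at 10 to 15 Mb, where the Speer genes lie, 16 of 18 rose, 15 of the 18 having passed the filter in the same way, among them Gm10354 (6.90) and Speer4e, from 0.292 ± 0.0468 to 20.9 ± 1.06 FPKM (5.75). The axon guidance genes Sema3a and Sema3d of that window fell.

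A window of chromosome 2 at 175 to 180 Mb went the other way: 23 of 33 genes fell and 3 rose (median −2.69), and 24 of the 33 carry Gm numbers. Gm14325 fell from 9.95, 10.05 and 13.4 to 0.679, 0.140 and 0.164 FPKM (−4.92), and Zfp931, a zinc finger gene, by 3.88. It was picked as the window with the largest share of falling genes outside the X chromosome, and 17 of the 33 were under 0.5 FPKM in every round spermatid library.

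Variable segments of antigen receptor genes, used by lymphocytes after rearrangement, were mostly not tested: 7 of 204 immunoglobulin and 3 of 132 T cell receptor segments passed the filter, all 10 through the later stages only, so that their direction was set by the filter. Ighv1-84 was listed at 0 in spermatogonia and at 11.9, 14.8 and 18.1 FPKM in round spermatids, with 1.43 in pachytene cells, and Igkv4-63 was at 0, 0.137 and 0 and then at 19.7, 17.1 and 19.5 FPKM (7.14). The part of lymphocytes was not tested.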
